A study of Mus musculus with 6 samples.

Results

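T cells without surface CD69 from tolerant mice were compared with those of naive mice after both had met the same donor cells in culture. The comparison sets the tolerant CD69- array against the naive CD69- array, 2 of the 6 arrays of the study, with 1 array a side, so every difference given here is a measured value with no test. Genes were taken in when their non-normalized signal was 500 or more in the brighter of both arrays. That held for 5513 of the 8347 named genes detected on at least 1 array.

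Recipients were male C57BL/6 mice, and the skin came from the tail of BDF1 donors, a cross of C57BL/6 with DBA/2. The tolerant mice carried such a graft and had received a transfusion of donor cells together with MR-1, an antibody against CD40L, and their T cells were taken on day 100 after grafting. The naive mice were healthy and had no graft, while the rejecting mice had a graft and no treatment and were sampled on day 7. T cells of spleen and lymph nodes from all 3 kinds of mice were cultured for 20 to 21 h with donor spleen cells depleted of T cells, then sorted for CD3 and by CD69 into positive and negative cells, and 0.55 µg of total RNA per sample was biotin-labelled for an Illumina MouseWG-6 array. The naive samples were therefore also exposed to donor cells, and the tolerant state differed from the naive one by graft, transfusion, antibody and time together, which cannot be told apart. How many mice stood behind each sample, and whether they were pooled, is not given in the sources used here. The treatment protocol label names CD69+ for both sorted fractions, and the second was read as CD69- from the sample titles and the cell type label.

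CD69 is a membrane protein that T cells display within hours of stimulation, and it also appears on T cells that sense type I interferon. Type I interferons act through a receptor whose signal reaches interferon response elements in promoters of antiviral genes. Interferon gamma, made by activated T cells and NK cells, acts mainly through a different element and through IRF1, and induces guanylate-binding proteins, immunity-related GTPases and chemokines. In transplantation, blocking CD40L during a donor transfusion is a known way of obtaining long graft survival in mice.

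Interferon-induced genes made up much of the lower side of the comparison, so the promoters of 5 of them are shown, with matches to the interferon response element core in capitals. The core was searched as GAAANNGAAA on both strands, so a match on the other strand reads as its reverse complement. These 5 genes were chosen after it was known that their windows hold a match. Each window runs from 250 bases before to 50 bases after the RefSeq start of the gene in build GRCm38.p6, and is printed 5′ to 3′ along the gene's own strand. Isg15 encodes a ubiquitin-like protein that is coupled to other proteins, Ifit3 a binding partner of other IFIT proteins, and Rsad2 the antiviral enzyme viperin. Cxcl10 encodes a chemokine that attracts T cells carrying CXCR3, and Gbp2 a guanylate-binding GTPase.
Isg15 (chr4:156200769-156201068, minus strand): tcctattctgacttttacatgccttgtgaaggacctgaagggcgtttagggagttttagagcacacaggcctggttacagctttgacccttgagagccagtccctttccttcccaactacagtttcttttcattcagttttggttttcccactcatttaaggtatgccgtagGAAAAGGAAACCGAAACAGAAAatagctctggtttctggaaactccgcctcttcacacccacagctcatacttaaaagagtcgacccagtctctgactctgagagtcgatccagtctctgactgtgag
Ifit3 (chr19:34583279-34583578, plus strand): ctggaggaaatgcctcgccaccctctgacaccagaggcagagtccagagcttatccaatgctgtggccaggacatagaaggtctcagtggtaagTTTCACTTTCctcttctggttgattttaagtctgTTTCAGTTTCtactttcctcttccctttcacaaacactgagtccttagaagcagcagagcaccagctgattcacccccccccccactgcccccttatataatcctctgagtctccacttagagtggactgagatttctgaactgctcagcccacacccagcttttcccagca
Rsad2 (chr12:26456403-26456702, minus strand): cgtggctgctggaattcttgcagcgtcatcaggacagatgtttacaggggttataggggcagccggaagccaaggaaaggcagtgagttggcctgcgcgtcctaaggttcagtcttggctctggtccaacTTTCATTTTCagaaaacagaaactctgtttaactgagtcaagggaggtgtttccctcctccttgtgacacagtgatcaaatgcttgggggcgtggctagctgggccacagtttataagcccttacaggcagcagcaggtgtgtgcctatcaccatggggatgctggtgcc
Cxcl10 (chr5:92348840-92349139, minus strand): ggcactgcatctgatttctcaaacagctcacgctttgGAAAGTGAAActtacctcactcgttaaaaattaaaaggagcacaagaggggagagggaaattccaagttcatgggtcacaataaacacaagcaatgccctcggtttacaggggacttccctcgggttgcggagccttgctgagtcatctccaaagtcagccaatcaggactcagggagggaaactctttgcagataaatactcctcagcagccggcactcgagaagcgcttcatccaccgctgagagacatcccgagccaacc
Gbp2 (chr3:142620413-142620712, plus strand): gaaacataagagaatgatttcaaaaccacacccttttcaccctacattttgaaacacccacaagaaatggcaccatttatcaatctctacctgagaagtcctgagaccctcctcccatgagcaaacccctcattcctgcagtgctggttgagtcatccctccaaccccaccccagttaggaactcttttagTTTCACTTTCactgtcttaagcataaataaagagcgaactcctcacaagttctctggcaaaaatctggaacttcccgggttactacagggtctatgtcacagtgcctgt

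The Isg15 window holds 3 overlapping matches that begin between positions -78 and -66, counted in bases from the gene's start. The Ifit3 window holds 2 matches, and each of the other windows holds 1, from -213 in Cxcl10 to -59 in Gbp2. Over all genes with a window in the table, 1079 of 27025 (3.99%) hold the core. Among the named genes with a signal of 500 or more, 189 of 4547 (4.16%) hold it. It was found in 36 of the 120 genes with a window that were at least 1.5-fold lower in tolerant CD69- cells (30.0%), and in 2 of 49 on the higher side at the same minimum (4.08%). A match in this window is a description of the letters and not evidence of binding.

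Both sorted samples carried T cell RNA. Of 19 T cell markers, 13 were measured and 12 reached the signal minimum. None of those 12 was 1.5-fold apart between the tolerant and naive CD69- arrays, and their median log2 difference was 0.15. Cd3e, a chain of the T cell receptor complex, had log2 levels of 14.86 in naive, 14.98 in tolerant and 14.80 in rejecting CD69- cells. In CD69+ cells Cd3e stood at 14.24 in naive, 14.59 in tolerant and 14.21 in rejecting samples. Cd4 was 0.18 higher in tolerant CD69- cells, and Thy1, a surface protein of mouse T cells, was 0.40 higher. The Cd8a probe was not detected on any array, but Cd8b1, the gene of the other CD8 chain, was among the 12 markers at the signal minimum. The fraction names also held for the message of the sorting marker. Cd69 had log2 levels of 12.53, 11.21 and 12.65 in naive, tolerant and rejecting CD69- cells. In CD69+ cells Cd69 stood at 13.77, 13.31 and 13.89 in the same order. Each CD69+ sample was above its CD69- partner. Il2, the T cell growth factor, was below detection in the naive and tolerant CD69- samples, and its level was 13.56 in naive and 12.24 in tolerant CD69+ cells. In such sorted bulk samples, fewer cells of a type and less RNA per cell cannot be told apart.

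Tolerant and naive CD69- cells differed at few genes, and more of them were lower than higher. Of the 5513 genes, 59 stood above naive cells by a factor of 1.5 or more in tolerant cells (1.07%) and 145 stood below by that factor (2.63%). Only 7 of the higher genes reached 2-fold and 0 reached 4-fold, whereas 60 of the lower genes reached 2-fold and 11 reached 4-fold. The largest difference upward was 2.59-fold and the largest downward 14.99-fold. The median log2 difference over all 5513 genes was 0.02, and the 5th and 95th percentiles were -0.39 and 0.36. With the arrays centred on their medians instead of quantile normalized, the median of all genes moved to -0.09 and the split became 34 higher and 195 lower, so 14.8% of the genes that differed were higher instead of 28.9%. Just inside the signal minimum stood Socs1 at 502.9 and Pros1 at 509.9, and just outside Sytl2 at 498.7 and Ptms at 493.1. By fold, Icam1 at 1.501 and Pou2af1 at 1.502 were just inside, and Irf9 and Vat1, both at 1.499, just outside.

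**Figure D1:**
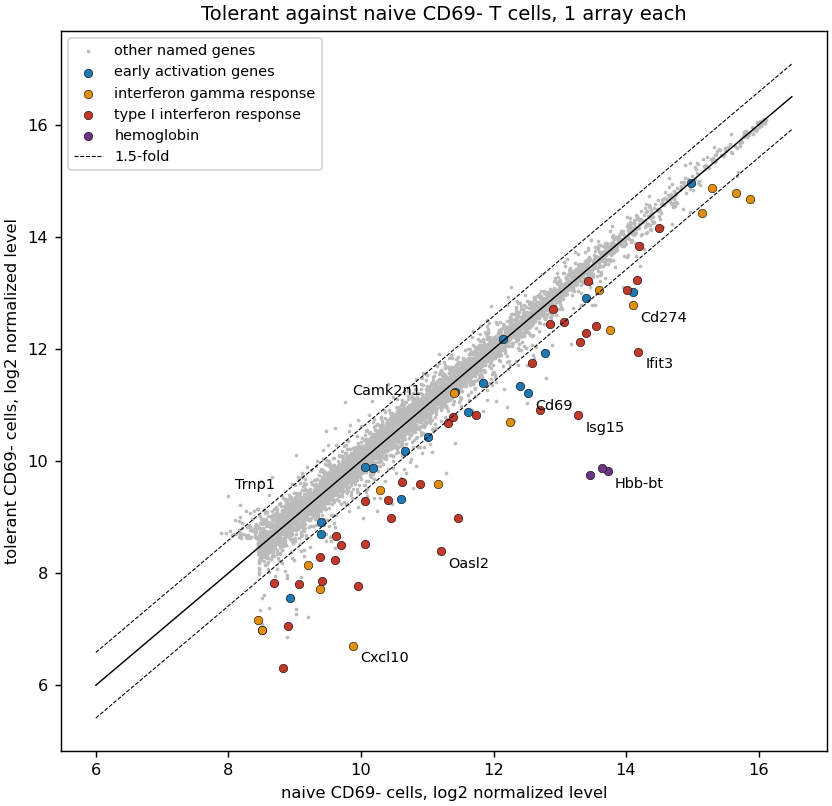
Log2 normalized levels of 5513 named genes in naive CD69- cells (horizontal axis) and tolerant CD69- cells (vertical axis), 1 array each, with the line of equal level and dashed lines at 1.5-fold. Genes of the type I interferon, interferon gamma and early activation lists and 3 hemoglobin genes lie mostly below the diagonal, while Trnp1 and Camk2n1 lie above it by 1.37 and 1.30.

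The largest block of lower genes was the type I interferon response. Of 54 listed genes, 40 were measured and 36 reached the signal minimum. All 36 were below 0 and 30 were at least 1.5-fold lower, with none higher, against 2.63% of all genes lower. The list's median log2 difference was -1.11, against 0.02 over all genes. Oasl2, an oligoadenylate synthetase-like protein, had log2 levels of 11.22 in naive, 8.39 in tolerant and 12.28 in rejecting CD69- cells. In CD69+ cells Oasl2 stood at 8.52, 6.68 and 10.09 in the same order. The tolerant sample was the lowest in each fraction and the rejecting sample the highest. In CD69- cells this made Oasl2 7.10-fold lower in tolerant than in naive cells.

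Isg15 showed the same order of states. Its log2 levels were 13.28, 10.81 and 14.22 in naive, tolerant and rejecting CD69- cells and 12.95, 11.56 and 13.74 in CD69+ cells. The tolerant CD69- sample was thus 5.52-fold below the naive one. Ifit3 had levels of 14.18, 11.95 and 14.90 in the CD69- cells and 11.63, 10.24 and 13.04 in the CD69+ cells, a 4.72-fold lower level in tolerant than naive CD69- cells. Rsad2 had levels of 11.46, 8.99 and 12.45 in CD69- cells and 9.55, 7.76 and 10.66 in CD69+ cells, and was 5.57-fold lower. All 4 of these genes had their lowest value of each fraction in the tolerant sample.

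Other enzymes and regulators of the pathway were also lower. Cmpk2, a mitochondrial nucleotide kinase, was lower by 2.18 on the log2 scale (log2 difference -2.18), and Isg20, an exonuclease, differed by -1.84. Usp18, which removes ISG15 from proteins and restrains the interferon receptor, differed by -1.80. Oasl1 was not detected in tolerant CD69- cells and was at least 4.43-fold lower there. With no background correction Isg20 differed by -1.17 and Oasl1 by -1.43. The transcription factors of the response were lower as well. Irf7, the factor that amplifies type I interferon production, differed by -1.55, and Stat2, a subunit of the interferon-activated complex, by -1.37. Irf9, its DNA-binding partner, differed by -0.58 and was just outside 1.5-fold. The sensors of foreign nucleic acid included Zbp1 at -1.55, Dhx58 at -1.47, Ddx58 at -1.21 and Eif2ak2 at -1.10. The other probe of Ddx58 differed by -0.48, and further Zbp1 probes by -2.18 and -0.90. The 6 members within 1.5-fold were Irf9, Trim25, Ifi27, Slfn1, Samd9l and Sp100, from -0.58 to -0.19.

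The interferon gamma list was lower to a similar degree. Of 26 listed genes, 18 were measured and 16 reached the signal minimum. All 16 were below 0, with a median log2 difference of -1.24, and 13 were at least 1.5-fold lower, against 2.63% of all genes. Cxcl10 had log2 levels of 9.88 in naive, 6.70 in tolerant and 10.32 in rejecting CD69- cells, and of 10.72, 10.35 and 11.02 in CD69+ cells. It was 9.04-fold lower in tolerant than in naive CD69- cells, and the CD69+ values differed less. With no background correction the CD69- difference of Cxcl10 was -2.14. The guanylate-binding proteins Gbp10, Gbp5, Gbp7, Gbp3 and Gbp2 differed by -1.66, -1.57, -1.57, -1.42 and -1.19. These proteins are near relatives, so a probe may read more than 1 of them. Gbp2 had a naive signal of 62841, near the top of the signal range, and its other probe differed by -2.14. Of the immunity-related GTPases, Igtp differed by -0.88, Irgm1 by -0.72 and Irgm2 by -0.53, and 2 other Irgm1 probes differed by -1.05 and -1.37.

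Other genes of that list concern inhibition and feedback. Cd274 encodes PD-L1, a ligand that inhibits T cells through PD-1. Its log2 levels were 14.10 in naive, 12.78 in tolerant and 13.87 in rejecting CD69- cells and 12.46, 12.18 and 12.47 in CD69+ cells. The tolerant CD69- sample was 2.50-fold below the naive one, and the CD69+ samples were within 1.5-fold of each other. Irf8, a transcription factor of myeloid and activated lymphoid cells, differed by -1.53, with low levels of 8.51 in naive and 6.98 in tolerant CD69- cells, and by -0.92 with no background correction. Irf1, an early interferon gamma target, was at -0.41, and Nlrc5, the activator of MHC class I genes, at -0.19.

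The other DNA element of this system was also searched, a choice made after the values were seen. This is the GAS element of interferon gamma signalling, searched here as TTCNNNGAA on both strands. GAS matches were found in 6 of the 12 lower interferon gamma genes with a window (50%), in 5 of the 23 lower type I genes (21.7%) and in 2582 of all 27025 genes (9.55%). The response element core was held by 9 of the 12 lower interferon gamma genes (75%) and 11 of the 23 lower type I genes (47.8%). Matches to both motifs overlapped in windows of 23 of all genes, 1 of them on the type I list and 0 on the interferon gamma list. Outside both lists, 16 of 85 lower genes held the core (18.8%) and 18 of 85 held GAS (21.2%). GAS was held by 29 of all 120 lower genes (24.2%) and by 2 of 49 higher genes (4.08%). These shares are descriptions, because many list members are known interferon targets.

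**Figure D2:**
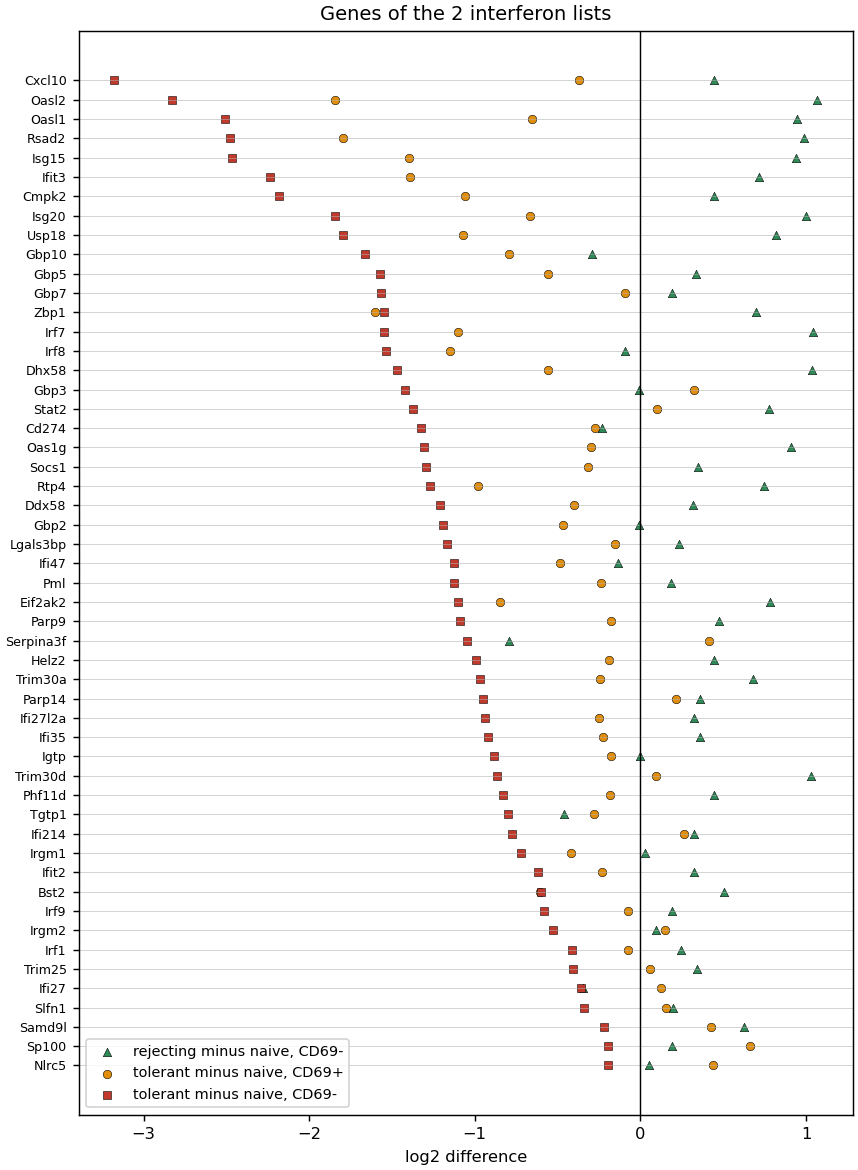
Log2 differences (horizontal axis) for the 52 genes on either interferon list with the signal minimum, for tolerant minus naive CD69- cells (squares), tolerant minus naive CD69+ cells (circles) and rejecting minus naive CD69- cells (triangles), 1 array a side. Every square lies below 0, from -3.18 for Cxcl10 to -0.19 for Nlrc5 and Sp100, while the circles lie closer to 0 for 32 of 36 type I and 15 of 16 interferon gamma genes. The squares and triangles share the naive CD69- array.

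Several lower genes outside the lists are also known interferon targets, and they are named from the largest differences. Ube2l6 encodes the conjugating enzyme for ISG15 and differed by -2.02. Rnf213, a large ubiquitin ligase, differed by -1.99, and Gm4951, an interferon-inducible GTPase gene, by -1.75. With no background correction Ube2l6, Rnf213 and Gm4951 stood at -1.25, -1.33 and -1.16. In all, 43 of the 145 lower genes were on the type I or interferon gamma list (29.7%), and these lists make up 52 of the 5513 genes (0.943%). Counting all lists, 66 of the 145 were on at least 1.

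MHC class I genes stood slightly lower. All 19 measured members were below 0, with a median of -0.35, but only 2 were at least 1.5-fold lower, against 2.63% of all genes. These were Tapbp, the tapasin chaperone of peptide loading, at -0.62 and H2-T23, the nonclassical molecule Qa-1, at -0.59. The immunoproteasome subunits Psmb8 and Psmb10 stood at -0.52 and -0.47. H2-K1 was at -0.22. B2m, the shared light chain, had signals of 69649 and 67463, too near the top of the range to read a difference.

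Genes of early T cell activation were also lower in tolerant CD69- cells. Of 34 listed genes, 30 were measured and 19 reached the signal minimum, with a median of -0.58. Of those 19, 9 were at least 1.5-fold lower and 0 higher, against 2.63% and 1.07% of all genes. The sorting marker Cd69 itself was 2.50-fold lower, by the levels given above. A further Cd69 probe differed by -0.59. Egr3, a transcription factor of T cell receptor signalling that is tied to anergy, had log2 levels of 8.93, 7.55 and 8.27 in naive, tolerant and rejecting CD69- cells and of 11.63, 11.20 and 11.51 in CD69+ cells. Tnfrsf9, the costimulatory receptor 4-1BB, had levels of 10.61, 9.33 and 9.996 in CD69- cells and of 12.96, 13.03 and 12.82 in CD69+ cells. Both genes were lowest in the tolerant CD69- sample, and the CD69+ values of Tnfrsf9 lay close together. Tnfrsf4, the receptor OX40, differed by -0.85, Batf, an AP-1 family factor, by -0.75 and Lta, lymphotoxin alpha, by -0.69. With no background correction Lta was at -0.55. Il2ra, the high-affinity chain of the IL-2 receptor, stood at -0.29 and Egr1 at -0.45. Ifng was at -1.29 with a signal of 419 in the brighter array, below the minimum.

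Feedback inhibitors of cytokine receptors were lower together, a family singled out after its values were seen. Of the 8 members of the SOCS and CISH family, 7 were measured, 6 reached the signal minimum and 4 were at least 1.5-fold lower. Over all genes 2.63% were lower. The family is not separate from the lists above, because Socs1 is also on the interferon gamma list and Socs3 and Cish are on the early activation list. Socs1, induced by interferons, differed by -1.30, Socs3, induced by IL-6 family cytokines, by -1.09, Cish, a STAT5 target, by -1.05, and Socs2 by -0.91. Socs4 stood at 0.11 and Socs5 at -0.47. In CD69+ cells the same 4 genes stood at -0.31, -0.29, -0.31 and 0.08. Jak3, the kinase of the common gamma chain, was lower at -0.88, and Jak1 was among the higher genes.

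Immediate early genes were split. Fos, Gadd45b and Jun were at least 1.5-fold lower, at -0.79, -0.70 and -0.64, and Ier3 was higher by 0.98, out of 17 with the signal minimum. Over all genes 2.63% were lower and 1.07% higher. Proteins of the Fos and Jun families form AP-1. With no background correction Gadd45b and Jun, at -0.57 and -0.58, were just within 1.5-fold. The other probe of Gadd45b differed by -0.27, and the mean of its probes, at -0.48, was also within 1.5-fold. The regulatory T cell list had a median of -0.21. Of its 17 members, 3 were at least 1.5-fold lower and none higher, against 2.63% and 1.07% of all genes. Besides Tnfrsf9 and Tnfrsf4, which are also activation genes, this was Foxp3, the lineage factor of regulatory T cells. Foxp3 had log2 levels of 10.88 in naive, 10.25 in tolerant and 10.27 in rejecting CD69- cells, and of 12.01, 12.59 and 12.05 in CD69+ cells. It was lowest in the tolerant CD69- sample, next to the rejecting one, and highest in the tolerant CD69+ sample. Of its 3 other probes, the CD69- differences were -0.74, -0.58 and -0.02. Foxp3 was within 1.5-fold by the mean of its probes (-0.49) and with no background correction (-0.58). In CD69+ cells the regulatory T cell list had a median of 0.20. There 7 of 17 members were at least 1.5-fold higher and 0 lower, against 11.8% of all genes higher in that fraction.

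Anergy and inhibitory receptor genes did not stand out in CD69- cells. Egr3 was the only 1 of 13 members at least 1.5-fold lower, against 2.63% of all genes, and none was higher. The list's median was 0.13, and Dgka and Dgkz, diacylglycerol kinases that dampen T cell receptor signals, stood at 0.21 and 0.22. Ctla4 was at 0.12. In CD69+ cells the list had a median of 0.46. There 4 of 13 members were at least 1.5-fold higher and 0 lower, against 11.8% of all genes higher in that fraction. Of the survival genes, Bcl2, an inhibitor of apoptosis, differed by -0.74, and the other 11 BCL-2 list members were within 1.5-fold. Bbc3, the pro-apoptotic PUMA, stood at 0.55 and Mcl1 at -0.36.

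Genes of quiescence stood slightly higher, without passing 1.5-fold except for 1, against 1.07% of all genes higher. Of 26 members, 23 were above 0, with a median of 0.16, and Dapl1, a death-associated protein-like gene of naive T cells, was higher by 0.83. Klf3, a transcription factor, stood at 0.56, Il6ra at 0.43 and Il7r, the IL-7 receptor, at 0.22. Under median centring the list's median was 0.04. In the CD69+ fraction the same list had a median of 0.74, and 16 of 26 members were at least 1.5-fold higher there, against 11.8% of all genes in that fraction. Memory and effector genes were mixed, with 2 of 20 members at least 1.5-fold higher and 1 lower, against 1.07% and 2.63% of all genes. Ahnak, a scaffold protein of calcium signalling, was higher by 0.73 and Itga4, the integrin that guides T cells to inflamed tissue, by 0.72, while Plac8 differed by -1.07. Itga4 was at 0.51, within 1.5-fold, with no background correction. In CD69+ cells the memory and effector list had a median of 0.55, and 9 of 20 members were at least 1.5-fold higher and 0 lower.

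Gzmk and Gzmm were the higher part of the cytotoxic list, in which 2 of 7 members were at least 1.5-fold higher and 0 lower. Over all genes 1.07% were higher and 2.63% lower. The granzyme genes Gzmb and Gzmc were not detected on any array, and Gzma had no probe with 1 gene symbol. Gzmk, a granzyme of memory CD8 T cells, had log2 levels of 8.61 in naive, 9.39 in tolerant and 8.06 in rejecting CD69- cells, and of 7.14, 9.08 and 6.78 in CD69+ cells. The tolerant sample was the highest in each fraction. Gzmm had levels of 8.49, 9.65 and 9.25 in CD69- cells and of 7.26, 7.74 and 7.95 in CD69+ cells, so in both fractions the naive sample was the lowest. Nkg7 stood at 0.22 and Ctsw, cathepsin W, at -0.31. Ccl5 and Cxcr3 of the type 1 helper list stood at 0.41 and 0.34.

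**Figure D3:**
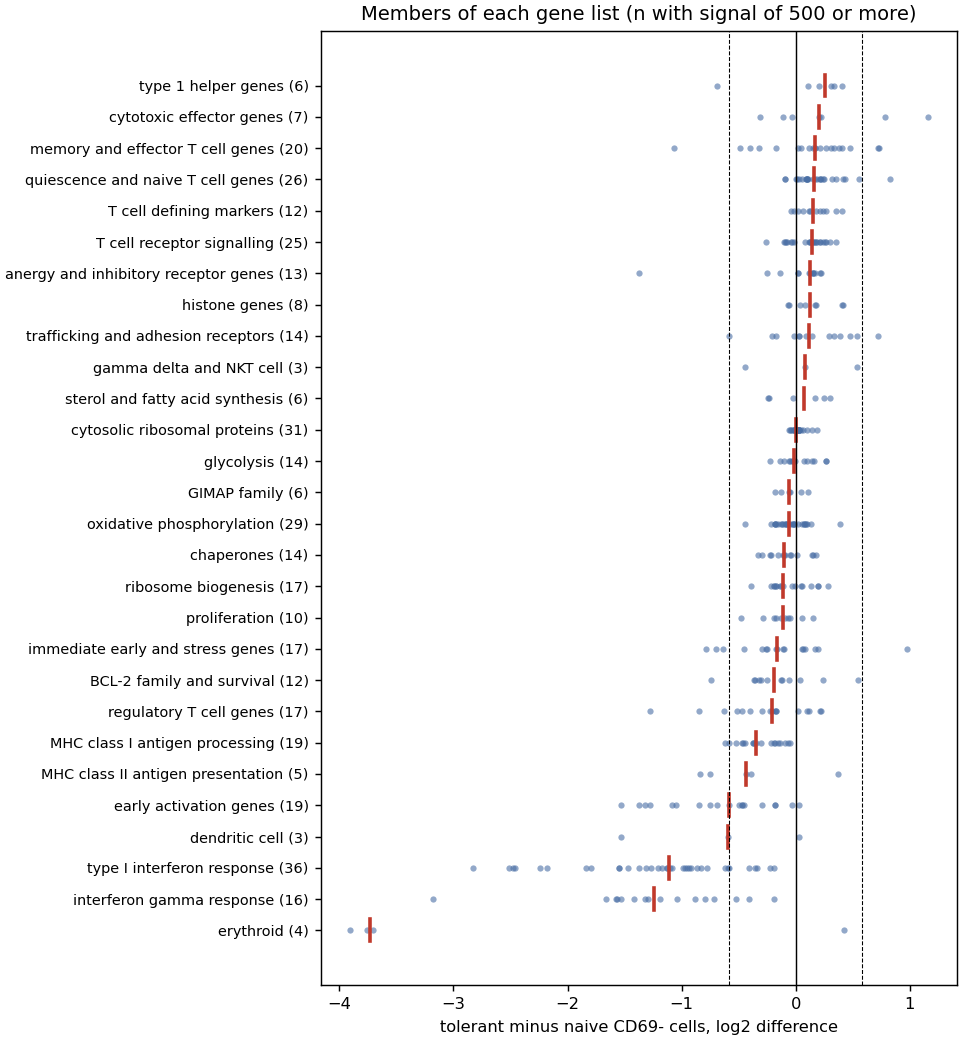
Log2 difference of tolerant minus naive CD69- cells (horizontal axis) for each member (points) of the lists with 3 or more members at the signal minimum, with the list median (vertical bar) and dashed lines at 1.5-fold. The interferon, erythroid, early activation and dendritic lists have the lowest medians. Most ribosomal protein probes were near the top of the signal range, so their place at 0 carries no information.

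The genes with the largest difference upward had no common list. Trnp1, a nuclear protein of the developing brain, had log2 levels of 7.996 in naive, 9.37 in tolerant and 7.72 in rejecting CD69- cells, and of 6.23, 7.53 and 6.02 in CD69+ cells. Camk2n1, an inhibitor of the calcium-calmodulin kinase CaMKII, had levels of 9.76, 11.06 and 9.80 in CD69- cells and of 8.02, 9.71 and 8.08 in CD69+ cells. For both genes the tolerant sample was the highest in each fraction. Trnp1 was not detected in naive and rejecting CD69+ cells. Prss12, a secreted protease, was higher by 1.06 and 1.68 in CD69- and CD69+ cells, and Adh1, an alcohol dehydrogenase, by 1.07 and 1.46. Jak1, the kinase that serves interferon and common gamma chain receptors, was higher by 1.05 in CD69- cells and at least 1.78-fold in CD69+ cells, where the naive sample was not detected. Its 2 other probes differed by 0.33 and 0.22, and the mean of its probes, at 0.53, was within 1.5-fold. The calponin gene Cnn2 was higher by 0.96, but another of its probes was at -0.14 and the mean of them, at 0.41, was within 1.5-fold. Smaller differences upward were seen for the metal-binding protein Mt1 at 0.83, the nuclear envelope protein Syne1 at 0.82, which was at 0.57 with no background correction, and the collagen receptor Ddr1 at 0.85.

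Many cellular systems showed no member 1.5-fold apart in CD69- cells. These were oxidative phosphorylation (29, median -0.06), T cell receptor signalling (25, median 0.15), ribosome biogenesis (17, median -0.11), glycolysis (14, median -0.02), chaperones (14, median -0.10), proliferation (10, median -0.11), histones (8, median 0.12), sterol and fatty acid synthesis (6, median 0.08) and the GIMAP family (6, median -0.06). Cytosolic ribosomal protein genes could not be read in this way, because 26 of their 31 probes had signals of 50000 or more in both arrays, near the highest signals of 70290 and 70893, where differences are compressed. Type 2 and IL-17 helper genes had 2 members at the signal minimum, Gata3 at 0.26 and Rora at 0.01. In CD69+ cells the medians of ribosome biogenesis and of the GIMAP family were -0.51 and 0.54. Trafficking receptors had 1 of 14 members higher, Itga4, and 1 lower, the adhesion ligand Icam1 at -0.59, which was at -0.57 with no background correction. Over all genes 1.07% were higher and 2.63% lower. Cxcr5, the follicle-homing receptor, stood at 0.54 and Cd44, a marker of antigen experience, at 0.47.

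Markers of other cell types moved with the comparison in part. The largest differences of all were those of hemoglobin. Hbb-bt, a beta globin chain of red cells, had log2 levels of 13.72 in naive, 9.82 in tolerant and 13.32 in rejecting CD69- cells, and of 10.80, 8.64 and 10.78 in CD69+ cells. The tolerant sample was lowest in each fraction, and was 14.99-fold below the naive sample in CD69- cells. Hbb-bs, another beta globin chain, and Hba-a1, an alpha globin chain, differed by -3.76 and -3.71. Hbb-bt and Hbb-bs are near-identical copies that cannot be told apart securely by probes. The erythroid list had 6 of 17 genes measured, and its summed normalized intensity was 38897 in naive, 4545 in tolerant and 31489 in rejecting CD69- cells. Of its 4 members at the signal minimum, 3 were lower, the globins. The other, the transferrin receptor Tfrc, stood at 0.42 and is part of these sums. The red cell genes Alas2, Slc4a1 and Klf1 were not detected on any array. The part of red cell RNA in the other differences was not tested.

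Antigen-presenting cell markers were mostly near detection. Of 25 monocyte and macrophage markers, 5 were measured and 18 were not detected on any array, among them Lyz2, Csf1r, Adgre1 and C1qa. The 5 measured ones summed to 4303 in naive and 4340 in tolerant CD69- cells. Of 18 B cell markers, 4 were measured, with Ms4a1 and Pax5 not detected, and they summed to 1717 and 2191. Of 16 dendritic cell markers, 7 were measured and summed to 6171 and 5044, while Itgax, Flt3 and Siglech were not detected. The 2 lower genes of that list, Irf8 and Bst2, are also on the interferon lists, and Bst2 was at -0.56 with no background correction. Of 16 neutrophil markers, 14 were not detected. Class II genes had 8 of 11 measured, with H2-Aa not detected, and summed to 17812 in naive and 12572 in tolerant CD69- cells. In CD69+ cells they summed to 8213 in naive and 11865 in tolerant samples. Of the 5 class II members at the signal minimum, 4 were below 0 in CD69- cells and all 5 were above 0 in CD69+ cells. Their medians were -0.43 and 0.89. Cd74, the class II invariant chain, and H2-DMa, which loads class II with peptide, differed by -0.84 and -0.75 in CD69- cells. Kit, a receptor of mast cells and progenitors, differed by -1.24, and the mast cell genes Cpa3 and Fcer1a were not detected. Of 18 NK cell markers, 9 were measured and summed to 16417 and 19595, with Ncr1 not detected. Ccr7 of the dendritic list is also on the quiescence and trafficking lists, and Nkg7 of the NK list is also on the cytotoxic list. The sums therefore do not measure those cell types alone. The part of these other cell types in the differences was not tested.

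**Figure D4:**
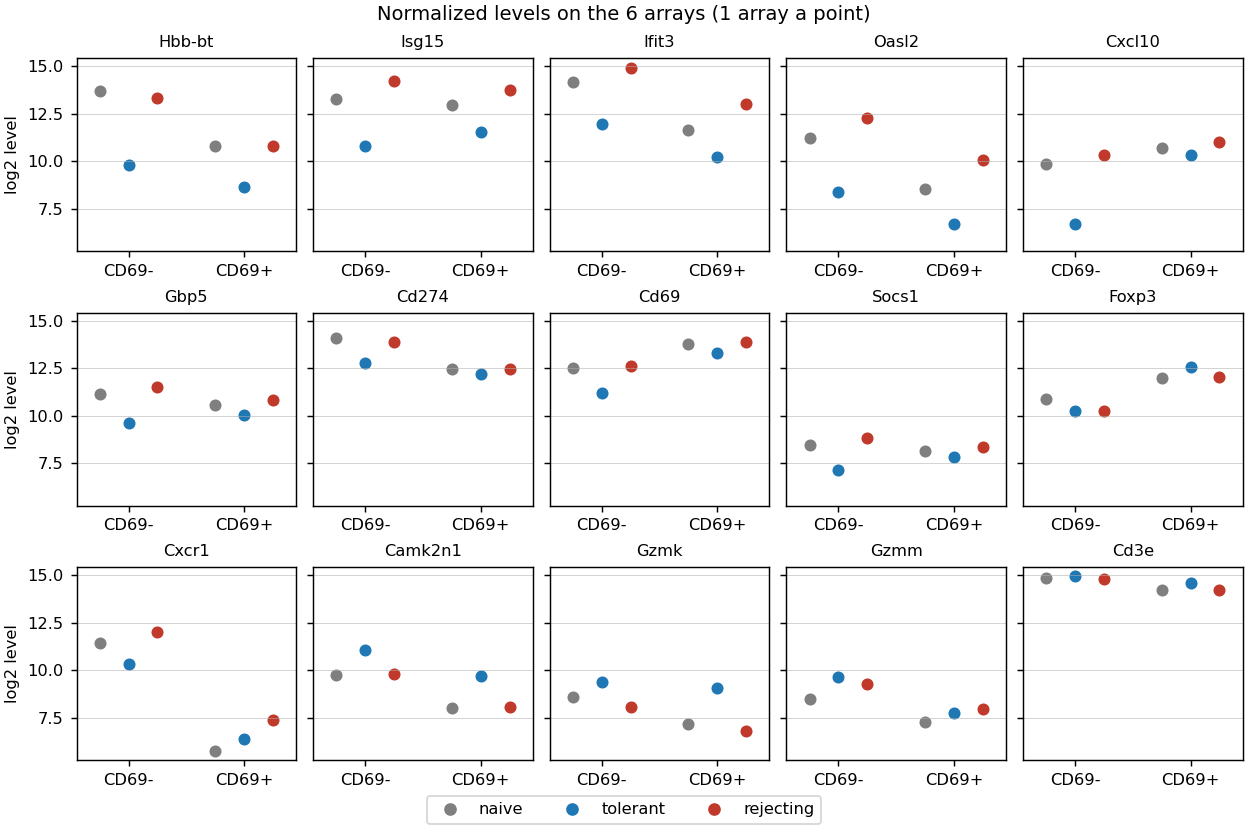
Log2 normalized levels (vertical axis) of 15 genes in naive, tolerant and rejecting samples of the CD69- and CD69+ fractions, 1 array a point. The tolerant sample is the lowest of its fraction for Hbb-bt, Isg15, Ifit3, Oasl2, Cxcl10, Gbp5, Cd274, Cd69 and Socs1 and the highest for Camk2n1 and Gzmk, while Cd3e is level.

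The CD69+ fraction was then read for the same genes, from the tolerant and naive CD69+ arrays, which share no array with the CD69- pair but come from the same cultures. That fraction differed at far more genes, where 698 of 5911 were higher in tolerant cells by 1.5-fold or more (11.8%) and 549 were lower (9.29%). Of the 59 genes higher in CD69- cells, 53 were also above 0 in CD69+ cells (89.8%), 33 by at least 1.5-fold, and 0 were at least 1.5-fold the other way. Of the 145 genes lower in CD69- cells, 104 were also below 0 in CD69+ cells (71.7%), 32 by at least 1.5-fold, and 4 were at least 1.5-fold higher. Over all 5513 genes the sign was shared by 3400 (61.7%). Pearson's r between the fractions was 0.37 across 5513 genes, which share arrays, probes and normalization and are not independent replicates.

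The fractions differed in the size of the lower genes' differences. The lower genes had medians of -0.92 in CD69- and -0.24 in CD69+ cells, and 140 of the 145 lay further from 0 in CD69- cells. They were picked for their difference in the CD69- pair, so a value nearer 0 in the other pair is partly set by that choice. For the 43 lower interferon genes, 37 were below 0 in CD69+ cells (86.0%), with medians of -1.27 and -0.37. For the other 102 lower genes, 67 were below 0 (65.7%). The higher genes had medians of 0.71 and 0.80, and 29 of 59 lay further from 0 in CD69- cells. No test of a difference between fractions is possible with 1 array each.

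Individual genes showed the range between the fractions. By the probe used here, Zbp1 was as low in CD69+ cells, at -1.55 and -1.60, and Bst2 stood at -0.60 and -0.61. Gbp7 was at -1.57 and -0.09 and Stat2 at -1.37 and 0.10. Among the higher genes, Gzmk stood at 0.79 and 1.94 and Ahnak at 0.73 and 2.02, further from 0 in CD69+ cells, and Ier3 and Sytl3 were higher by 0.98 and 0.84 in CD69- cells and at -0.37 and -0.53 in CD69+ cells. The 4 lower genes that were at least 1.5-fold higher in CD69+ cells were Tmem140, Cxcr1, Plgrkt and Cd74. These counts take CD69+ levels under detection as measured. Tmem140 was at least 1.26-fold higher against its undetected naive CD69+ level, and Cxcr1 was detected in neither of the CD69+ samples compared.

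**Figure D5:**
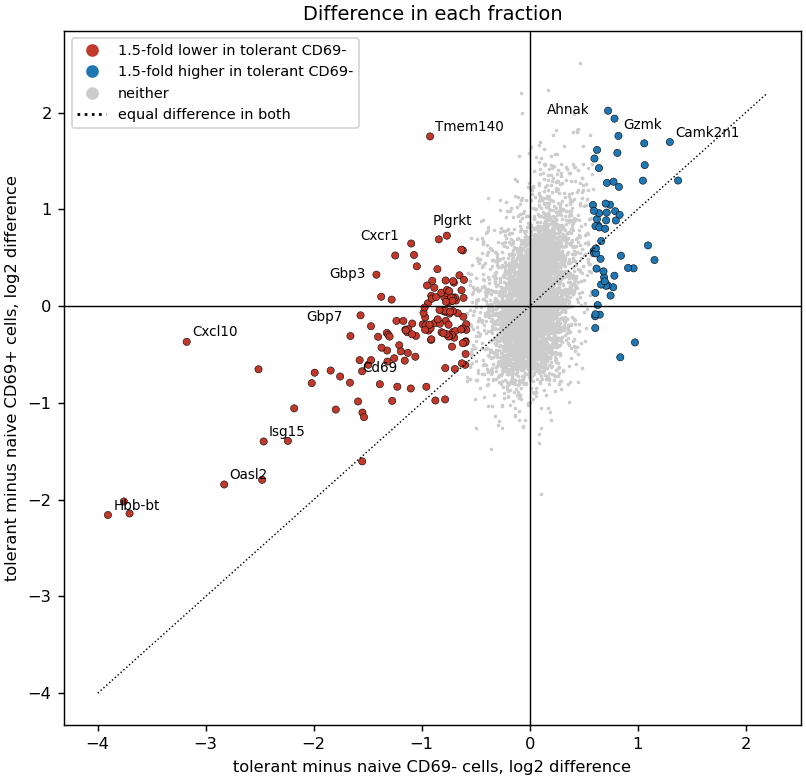
Log2 difference of tolerant minus naive cells in the CD69- fraction (horizontal axis) and in the CD69+ fraction (vertical axis) for 5513 named genes, with those at least 1.5-fold apart in CD69- cells in colour and a dotted line of equal difference. Most lower genes lie between the dotted line and 0, and 53 of 59 higher genes lie above 0 in both fractions.

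Rejecting CD69- cells were measured against the same naive CD69- array, so the values stand side by side only. The type I list had a median of -1.11 in tolerant and 0.49 in rejecting against naive CD69- cells, and 17 of its 36 members were at least 1.5-fold higher in rejecting cells, where 95 of the 5513 genes were (1.72%). The interferon gamma list had medians of -1.24 and 0.01, and the early activation list -0.58 and -0.18. Isg15 stood at -2.46 and 0.94, Irf7 at -1.55 and 1.04, Plac8 at -1.07 and 1.14, and Bcl2 at -0.74 and 1.03. Gbp2 stood at -1.19 and -0.01 and Foxp3 at -0.63 and -0.61. Hbb-bt stood at -3.91 and -0.40. Other detected probes of the genes 1.5-fold apart between tolerant and naive CD69- cells were also read. They gave the same sign in 33 of 35 cases for higher genes and in 97 of 101 for lower genes. Fewer of them were themselves at least 1.5-fold apart the same way, 13 of 35 for higher genes and 70 of 101 for lower genes.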

How the data were processed

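Per the file headers, the deposited non-normalized table gives each of 45281 probes a signal intensity and a detection p-value on each of 6 arrays, 1 per combination of status and CD69 fraction. Per the submitters' processing notes, GenomeStudio 2009.2 was the software of the authors. Array medians were 161.5 to 174.2, and 12669 to 13469 probes had a detection p under 0.01. With 1 array a side, precision is limited by the number of arrays. The sources used here give no slide or scan date. The authors' deposited value table, linear and quantile normalized by comparison with the array signals (median 168.3 in each column, no centring, method not stated), was an alternative.

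Background was corrected with limma 3.58.1 in R 4.3.3 (normexp, controls inferred from the detection p, offset 16), then quantile normalization and log2. Genes were kept where 1 array or more had a detection p under 0.01, and were read by their probe with the highest mean level. Of the probes, 34885 had 1 gene symbol, 18 several and 10378 are unnamed here, and symbols follow a mouse gene table (GRCm38.p6, names only). Differences of at least 1.5-fold were counted. A fold against an undetected side is a lower bound. Counting was checked on simulated data.

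The members and gene lists were chosen with earlier results of these data known. Genes are named by rule: the 15 largest differences each way, up to 4 (type I interferon: 5) of each list, up to 5 opposite between fractions, and a set of T cell genes, of which Cd40lg was not detected and some items are not reported here. Other names were chosen after values were seen.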

Additional observations from a re-analysis of the deposited data

Results flagged for a closer look

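4 genes were at least 1.5-fold lower in tolerant than naive CD69- cells and at least 1.5-fold higher in CD69+ cells. The difference between the fractions was not tested. Cd74 differed by -0.84 in CD69- and 0.69 in CD69+ cells, and its 2 other probes differed by -0.07 and -1.03 in CD69- cells. Cxcr1, a chemokine receptor best known from neutrophils, differed by -1.10 and 0.65, but it was not detected in naive or tolerant CD69+ cells, so the second value compares signals under the detection limit. Plgrkt, a plasminogen receptor, differed by -0.77 and 0.73, with clear signal in both fractions. Tmem140, a membrane protein, differed by -0.92 and 1.75, and it was not detected in naive CD69+ cells, against which it was at least 1.26-fold higher.

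Of 1175 probes without a gene name that reached the signal minimum, 14 were at least 1.5-fold higher and 20 lower in tolerant than naive CD69- cells, of which 4 are given here. ILMN_1251419 had a signal of 8426 in tolerant cells against 174 in naive cells, where it was not detected, so the level was at least 104-fold higher, and the log2 difference in CD69+ cells was 8.26. ILMN_2635272 had a signal of 897 against 337, with log2 differences of 2.16 in CD69- and 3.21 in CD69+ cells. ILMN_1246194 differed by -2.49 and -2.33 and ILMN_2433990 by -2.03 and -0.96.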

How the results depend on the processing

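No gene named at 1.5-fold or more changed sign under any alternative run. Some values near 0 did, among them these: under median centring the medians of the sterol, trafficking and gamma delta lists became -0.06, -0.02 and -0.01 and Cd3e -0.01, and with the mean of each gene's probes the glycolysis median became 0.06. The 59 higher genes became 32 with the authors' value table, 32 with no background correction, 34 with median centring, 7 at 2-fold and 191 with no signal minimum. The authors' table and no background correction gave the same counts, 32 higher and 121 lower, so they are not separate checks. The 145 lower genes became 60 at 2-fold and 310 with no signal minimum. All 34 higher genes and 145 of the 195 lower genes under median centring were among those of the report. The share of these genes with the same sign in CD69+ cells was 76.96%, and became 69% with median centring, 89.55% at 2-fold and 66.07% with no signal minimum. Normalizing the CD69- pair alone, an alternative chosen after seeing the data, gave 57 higher and 144 lower genes. The median of the type I list ran from -1.215 to -0.9458 and its lower members from 27 to 31. Of the single-gene values, 14 moved by over 1.5-fold and 1104 did not; the 14 concern Cxcl10, Oasl1, Ube2l6, Rnf213, Isg20, Gm4951 and Irf8, with the authors' table or no background correction. Cxcl10 then differed by -2.139, and the cause was not tested. No paired analysis was possible because each combination of status and fraction has 1 array. For the same reason no array could be left out. Signals near background limit folds of dim genes.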

Other observations

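These lower genes are on none of the lists and were chosen after their values were seen. Tlr7, a sensor of single-stranded RNA, differed by -1.40 in CD69- and -0.32 in CD69+ cells, and Tlr6, a receptor for bacterial lipoproteins, by -0.85 and 0.38. Cd86, a costimulatory ligand of antigen-presenting and activated cells, differed by -0.97 and -0.12. Tgm2, a protein cross-linking enzyme, differed by -1.39 and -0.81, and the tryptophanyl-tRNA synthetase gene Wars, an interferon target, by -1.47 and -0.21. Bcl6, the factor of follicular helper T cells, was lower by 0.62 on the log2 scale in CD69- cells (-0.62) and stood at 0.58 in CD69+ cells.

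Among the higher genes on none of the lists, Fcgrt, the neonatal Fc receptor, stood at 0.81 and 1.58, Clec2d, a ligand of the NK receptor NKR-P1D, at 0.72 and 1.27, and Pou2af1, a coactivator known from B cells, at 0.59 and 1.05. Pik3r1, the regulatory subunit of PI3 kinase, stood at 0.60 and 1.53 and Cdc25b, a cell cycle phosphatase, at 0.62 in CD69- cells and at least 2.56-fold higher in CD69+ cells, where the naive sample was not detected.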
